A study of Mus musculus with 9 samples.

Results

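The genes described here are those with which the absorptive cell of the small intestine builds and coats chylomicrons. They comprise 10 genes, chosen by name: 5 apolipoproteins (Apob, Apoa1, Apoa4, Apoc3 and Apoc2), the lipid transfer subunit Mttp, the triglyceride synthesis enzymes Mogat2, Dgat1 and Dgat2, and the lipid droplet coat Plin2. All 10 were found by Ensembl identifier in a table of 31685 genes and all 10 were among the 13056 genes tested. Jejunal tissue was taken on day 3 from 9 male C57BL/6J wild-type mice aged 6–8 weeks. The 3 control mice received no treatment, the 3 TAI mice received PBS and 12 Gy of X-rays to the whole abdomen (total abdominal irradiation), and the 3 TAI/IVIg mice received the same 12 Gy and intravenous immunoglobulin, pooled human IgG, at 500 mg/kg. No gene was altered in any group. Because IVIg was given only to irradiated mice, its effect without irradiation is not part of the comparison. The labels place the samples in a single batch. Checked against its label, the control tissue carried Fabp6, an ileal gene, at 7326 to 8177 FPKM (a level per exon length and library, explained with the values) and Lct, a jejunal gene, at 4.82 to 16.6, whereas irradiated mice had 208 to 3529 and 106 to 343. Intestinal segment and treatment therefore cannot be told apart in comparisons with control. Fabp6 also differed without overlap between TAI (1372 to 3529) and TAI/IVIg mice (208 to 1351).

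Chylomicrons carry dietary fat out of the enterocyte. Fatty acids and monoacylglycerol taken up from the lumen are rejoined into triglyceride at the endoplasmic reticulum, where the microsomal transfer protein loads the lipid onto a single molecule of apolipoprotein B, and the particle acquires smaller apolipoproteins before it is exported through the Golgi into the lymph. Triglyceride that is not exported is kept for a time in cytosolic droplets coated by perilipins. In the mouse this machinery is most active in the proximal small intestine and in mature villus cells.

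Of the 10 genes, 3 lie side by side on chromosome 9 (GENCODE M21 annotation, GRCm38). These are Apoa1 (46228580–46230466, plus strand), Apoc3 (46232933–46235636, minus strand) and Apoa4 (46240696–46243459, plus strand), with 2466 and 5059 bases between neighbours. Dgat2 (99153658–99182719) and Mogat2 (99219084–99238619), both on the minus strand of chromosome 7, are 36.4 kb apart. The others are on their own: Apoc2 on chromosome 7 (19671579–19677941, minus strand), Apob on chromosome 12 (7977648–8016835, plus strand), Mttp on chromosome 3 (138089854–138144968, minus strand), Dgat1 on chromosome 15 (76502015–76511953, minus strand) and Plin2 on chromosome 4 (86648386–86670060, minus strand).

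RefSeq promoter sequences (GRCm38.p6) matched 6 of the 10 genes: Apoa1, Apoa4, Apob, Apoc2, Mttp and Plin2. The bases ahead of the first annotated start are shown for 3 apolipoprotein genes whose RNA rose together after irradiation and for Plin2, whose RNA fell. They are the plus strand of chr9:46228380-46228579 for Apoa1, of chr9:46240594-46240695 for Apoa4 and of chr12:7977427-7977647 for Apob, and the minus strand of chr4:86670061-86670309 for Plin2. Capitals mark matches on either strand to CAAAGNNCA, letters of the type bound by the hepatocyte nuclear factor HNF4, which are present in 6.36% of the 32851 promoter windows of 300 bases.
Apoa1: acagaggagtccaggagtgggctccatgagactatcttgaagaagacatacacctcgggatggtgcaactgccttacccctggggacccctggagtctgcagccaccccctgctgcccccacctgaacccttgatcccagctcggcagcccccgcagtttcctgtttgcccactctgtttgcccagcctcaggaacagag
Apoa4: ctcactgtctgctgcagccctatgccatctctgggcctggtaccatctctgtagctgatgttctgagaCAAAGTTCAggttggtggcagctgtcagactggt
Apob: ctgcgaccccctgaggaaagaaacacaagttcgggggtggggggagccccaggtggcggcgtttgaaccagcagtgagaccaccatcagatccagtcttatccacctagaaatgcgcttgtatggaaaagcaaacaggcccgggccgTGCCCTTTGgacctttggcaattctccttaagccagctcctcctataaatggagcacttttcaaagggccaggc
Plin2: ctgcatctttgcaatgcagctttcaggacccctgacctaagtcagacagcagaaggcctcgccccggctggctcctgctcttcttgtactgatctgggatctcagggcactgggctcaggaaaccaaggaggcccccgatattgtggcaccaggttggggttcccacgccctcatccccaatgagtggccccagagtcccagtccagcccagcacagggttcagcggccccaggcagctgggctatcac
One match was found in Apoa4 and one in Apob, and no other of the 6 windows held these letters. The letters AGGTCA, a core element of nuclear receptors found in 16.3% of all windows, occurred on either strand in the windows of Apoc2 (2 matches) and Plin2 (1 match), and ACGTCA, the core of a cyclic AMP response element found in 7.51%, once in that of Mttp. The stretch shown for Apoa4 also overlaps an exon of an annotated noncoding gene. A match of letters is a description of the sequence and does not show that a factor was bound.

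The genes ranged from Apoa1, among the most abundant transcripts of the tissue, to Apoc2 at a few FPKM. Values are given as FPKM, fragments scaled by exon length and by the counted reads of the library, so levels of different genes can be set side by side. In control mice the mean level ran from 4106 FPKM for Apoa1 through 503 for Mttp, 312 for Apoa4, 235 for Mogat2, 214 for Dgat1, 142 for Apob, 66.4 for Dgat2, 60.5 for Apoc3 and 30.2 for Plin2 to 2.24 for Apoc2. Compared within each control mouse, Mttp was above Apoa4, Mogat2 above Dgat1 and Dgat1 above Apob. Apoa4 and Mogat2 changed order between control mice (ratio of FPKM + 1 from 0.987 to 1.59). Apoc3 and Dgat2 did so too (0.722 to 1.16), so the order within those pairs is not resolved. After irradiation the order changed. In TAI mice Apoa1 (12661 FPKM) was followed by Apoa4 (2276), Apob (739), Mttp (454) and Apoc3 (397). Apoc3 was below Mttp in each TAI mouse (ratio of FPKM + 1 from 0.758 to 0.969). In TAI/IVIg mice Apoc3 (742) and Apob (737) stood level behind Apoa1 and Apoa4. Together the 10 genes held 1.58% ± 0.359 (SD, n = 3) of the summed FPKM in control mice, 4.77% ± 0.960 in TAI mice and 5.77% ± 0.606 in TAI/IVIg mice. Most of that share was Apoa1, which alone took up to 4.59% and ranked between 2 and 7 among all genes of a mouse. Libraries held 16284412 to 18244606 counted reads, recovered as whole reads from the FPKM values. Each member except Apoc2 rested on at least 717 reads in every mouse, and Apoc2 on 6 to 51.

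**Figure D1:**
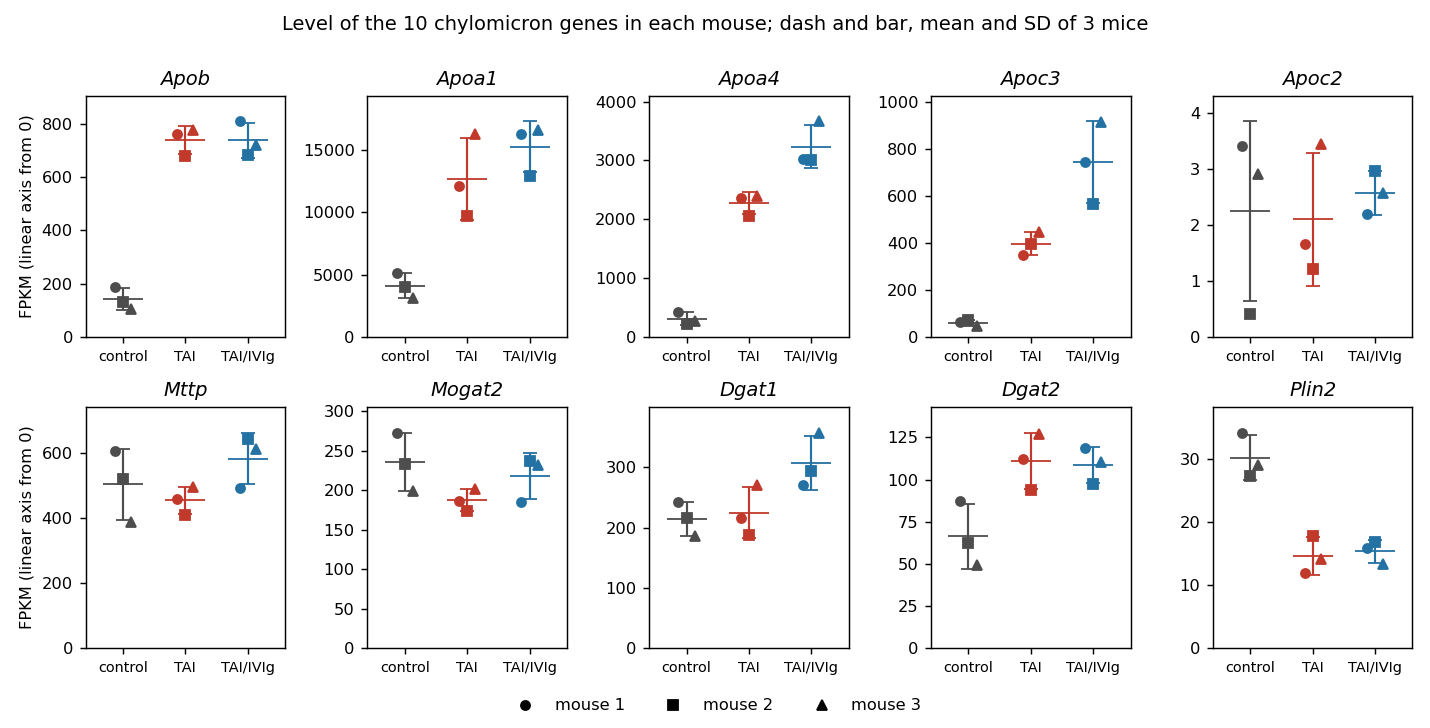
Level of each of the 10 genes in each mouse, in FPKM on a linear axis from 0, with a panel for each gene, a marker for each mouse and a dash with bar for the mean and SD of 3 mice per group. Apob, Apoa1, Apoa4, Apoc3 and, by a narrow margin, Dgat2 are higher in all irradiated mice than in all control mice, and Plin2 is lower. Apoc3, Apoa4 and, by less than 1 FPKM, Dgat1 are higher in all TAI/IVIg mice than in all TAI mice.

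Apob and 3 exchangeable apolipoproteins were higher after irradiation. Compared with control mice, TAI mice showed higher Apob, Apoa1, Apoa4, Apoc3 and Dgat2, lower Plin2, and no significant difference in Apoc2, Mttp, Mogat2 and Dgat1. Genes were tested with limma on log2(FPKM + 1) with all 9 mice in one fit, and a change was called at a Benjamini-Hochberg adjusted p under 0.05 over all 13056 genes. By that rule 5 of the 10 rose and 1 fell, where 8.81% of all genes rose and 26.1% fell. The median change of the 10 was 0.41 on the log2 scale, against a median of -0.23 over all genes. The genes were picked with earlier results of these data known, so the count describes them and does not test them as a set. Differences between groups can reflect the number of cells of a type in the tissue or the RNA in each cell, and bulk tissue cannot tell these apart.

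Apob encodes the non-exchangeable backbone of the chylomicron, 1 molecule to a particle. Its level was 187, 133 and 106 FPKM in the 3 control mice, 760, 679 and 777 in the TAI mice, and 808, 683 and 720 in the TAI/IVIg mice. Every irradiated mouse lay above every control mouse, with no mouse between 187 and 679 FPKM. The log2 fold change between TAI and control was 2.41 (SE 0.21, 95% CI 1.94 to 2.88, adjusted p = 0.000315, limma), a 5.31-fold rise of FPKM + 1. Between TAI/IVIg and TAI it was -0.00 (95% CI -0.47 to 0.47, adjusted p = 0.996), and the mice of both groups overlapped.

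Apoa1, the principal protein of high-density lipoprotein and an early surface protein of the nascent chylomicron, measured 5160, 3989 and 3170 FPKM in control mice. It reached 12056, 9704 and 16222 FPKM in TAI mice and 16237, 12898 and 16539 in TAI/IVIg mice. The lowest irradiated mouse stood well above the highest control mouse. Its log2 fold change after TAI was 1.62 (SE 0.29, adjusted p = 0.00443, limma), the smallest among the 4 apolipoproteins that rose. The call was lost when no filter on low values was applied (adjusted p = 0.0576).

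Apoa4, an apolipoprotein made by enterocytes during fat absorption and linked to particle size and satiety, showed 435, 230 and 271 FPKM in control mice. In TAI mice the values were 2370, 2055 and 2404, and in TAI/IVIg mice 3031, 3014 and 3662. These were 3 separate bands, with control lowest and TAI/IVIg highest and no overlap between any pair of groups. The rise after TAI was the largest of the 10 genes, with a log2 fold change of 2.91 (SE 0.24, adjusted p = 0.000283, limma), and ranked 31 by size of rise among all genes tested. Most of its exon bases, 69.8%, are overlapped by 2 annotated antisense genes, Gm47528 and Gm10680. Gm47528 had 1.42 to 6.30 FPKM in control, 8.44 to 22.5 in TAI and 8.97 to 25.6 in TAI/IVIg mice, on 55 to 1011 reads against 7387 to 111456 for Apoa4. Whether reads were counted by strand is not given in the sources used here, so reads of the pair cannot be told apart.

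Apoc3, which slows lipolysis and clearance of triglyceride-rich particles, had 62.7, 72.4 and 46.4 FPKM in control mice. TAI mice held 347, 397 and 446 FPKM and TAI/IVIg mice 745, 567 and 914. As with Apoa4, the 3 groups did not overlap. The log2 fold change was 2.71 after TAI (SE 0.22, adjusted p = 0.000269, limma) and 3.59 with IVIg in addition (adjusted p = 5.2e-05), the largest change of any member against control.

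Apoc2, the activator of lipoprotein lipase, was the only apolipoprotein of the 5 without a call in any comparison, at 3.40, 0.418 and 2.91 FPKM in control, 1.65, 1.21 and 3.44 in TAI and 2.19, 2.97 and 2.57 in TAI/IVIg mice. All groups overlapped. With so few reads the interval of its log2 fold change after TAI was wide, from -0.92 to 0.98, and a change of nearly 2-fold either way could not be detected. The annotation places 79.5% of its exon bases inside the readthrough gene Gm44805, so its reads may be split between them.

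The genes that make triglyceride and load it onto the particle moved less. Mttp, the lipid transfer subunit, had 604, 518 and 388 FPKM in control, 458, 410 and 494 in TAI and 492, 642 and 612 in TAI/IVIg mice, with overlap in every comparison. Its log2 fold change after TAI was -0.13 (95% CI -0.58 to 0.32, adjusted p = 0.631, limma), and its sign turned when library medians were set equal (0.16) and with median-ratio library sizes (0.16). Set beside Apob, its level per length was 3.23 to 3.90 times that of Apob in control mice, 0.603 to 0.636 times in TAI mice and 0.609 to 0.940 times in TAI/IVIg mice. The 2 genes thus changed places in rank while Mttp itself showed no significant change.

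Mogat2, the acyltransferase that begins resynthesis from monoacylglycerol, measured 273, 233 and 199 FPKM in control, 187, 173 and 201 in TAI and 185, 237 and 232 in TAI/IVIg mice. The groups overlapped, and the log2 fold change after TAI was -0.32 (95% CI -0.69 to 0.05, adjusted p = 0.158, limma). Dgat1, which completes most triglyceride in the murine enterocyte, stood at 242, 215 and 186 FPKM in control and 216, 187 and 270.0 in TAI mice (log2 fold change 0.06, 95% CI -0.36 to 0.48, adjusted p = 0.823). In TAI/IVIg mice it was 271, 293 and 357, above all other mice. Its lowest TAI/IVIg mouse exceeded TAI mouse 3 by less than 1 FPKM.

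Dgat2, the other diacylglycerol acyltransferase, rose from 87.3, 62.5 and 49.3 FPKM in control to 112, 93.8 and 127 in TAI mice, with 119, 97.1 and 110 in TAI/IVIg mice. Irradiated and control mice did not overlap, but the margin was narrow, from 87.3 to 93.8. The log2 fold change was 0.76 (SE 0.21, adjusted p = 0.0236, limma) and the call did not survive the loss of single mice: without control mouse 2 or 3, or TAI mouse 1 or 3, the adjusted p reached up to 0.0766, with log2 fold changes from 0.57. Adipocyte markers, 6 genes, summed to 29.8–90.4 FPKM in control, 68.8–543 in TAI mice and 9.65–95.7 in TAI/IVIg mice, with the highest sum in TAI mouse 3, which also had the highest Dgat2. Their part in the Dgat2 result was not tested beyond leaving that mouse out. Dgat1 was 2.77 to 3.77 times as abundant as Dgat2 in control mice, 1.93 to 2.12 times in TAI mice and 2.28 to 3.24 times in TAI/IVIg mice.

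Plin2, which coats the cytosolic lipid droplet, went the other way. Control mice had 34.2, 27.4 and 29.1 FPKM, TAI mice 11.9, 17.8 and 14.1, and TAI/IVIg mice 15.9, 16.9 and 13.3. All irradiated mice were below all control mice, at about the same level with and without IVIg. The log2 fold change after TAI was -1.01 (SE 0.17, adjusted p = 0.00322, limma), against a median of -0.23 for all genes, and it passed the threshold in all 17 alternative settings.

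**Figure D2:**
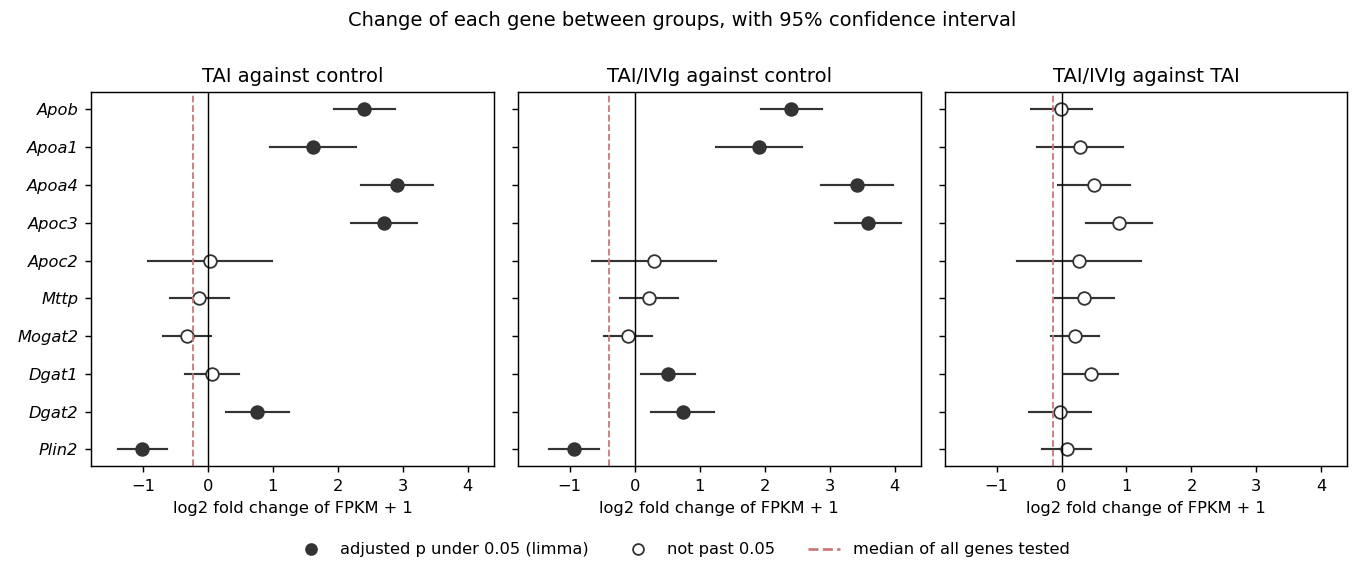
Log2 fold change of FPKM + 1 (x axis) of each gene in the 3 comparisons, with the 95% confidence interval of limma as a line, filled points for adjusted p under 0.05 and a dashed line at the median of all genes tested. Filled points lie between 1.62 and 2.91 for the 4 apolipoproteins that rose after TAI at 0.76 for Dgat2 and at -1.01 for Plin2, and no point is filled between TAI/IVIg and TAI.

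All 10 were then compared between TAI/IVIg and control mice, a comparison that uses the same 3 control mice. Of the 10 genes, 6 rose and 1 fell, where 9.06% of all genes rose and 37.4% fell. Apoc3 (3.59), Apoa4 (3.42), Apob (2.41) and Apoa1 (1.91) again had the largest log2 fold changes, followed by Dgat2 (0.74, adjusted p = 0.0205, limma) and Dgat1 (0.51, adjusted p = 0.0467). Plin2 fell by 0.93 (adjusted p = 0.00281). The Dgat1 call was lost without any filter, with only the 6 mice compared, and without control mouse 2, control mouse 3, TAI/IVIg mouse 2 or TAI/IVIg mouse 3 (adjusted p up to 0.151). The Dgat2 call was lost without control mouse 2 or 3 or TAI/IVIg mouse 1 or 3 (up to 0.0687), and that of Plin2 when library medians were set equal (log2 fold change -0.44, adjusted p = 0.0840).

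Whether IVIg changed these genes in irradiated mice is addressed by TAI/IVIg against TAI. No member passed the threshold, and neither did any of the 13056 genes in either direction (0% higher, 0% lower; smallest adjusted p = 0.353, limma). Before adjustment p was under 0.05 for 214 genes that were higher with IVIg and 1466 that were lower, and for 2 members, Apoc3 and Dgat1, both higher. Voom on recovered reads also called no gene. Limma without a filter on low values called 4 lower and none higher, and limma with mouse number as a block called 3 lower and none higher. Estimates were positive for 8 of the 10, with a median of 0.28 against -0.13 over all genes, on the log2 scale. Apoc3 had the largest, 0.88 (95% CI 0.37 to 1.39, unadjusted p = 0.00346, adjusted p = 0.353), followed by Apoa4 with 0.50 (95% CI -0.05 to 1.06, adjusted p = 0.409) and Dgat1 with 0.46 (95% CI 0.04 to 0.88, adjusted p = 0.369). For Apoc3, Apoa4 and Dgat1 the 3 TAI/IVIg mice were all above the 3 TAI mice, which was also so for 3.09% of all genes, while in 16.1% they were all below. The 95% CI of Mttp ran from -0.10 to 0.80, and that of Plin2 from -0.30 to 0.46, so differences inside those bounds were not excluded. Fabp6, an ileal gene, was 1372 to 3529 FPKM in TAI and 208 to 1351 in TAI/IVIg mice, without overlap. Slc10a2, also ileal, was 48.1 to 75.5 and 11 to 29.5, again without overlap. The part of intestinal segment in the higher Apoc3, Apoa4 and Dgat1 values was not tested.

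How mice separated without any test was described for all 3 comparisons. Between TAI and control, 5 members were higher and 1 lower without overlap, beside 15.1% and 38% of all genes. Between TAI/IVIg and control it was 6 and 1, beside 11.5% and 44.3%.

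The apolipoproteins did not rise in proportion. Apoa1 was 27.6 to 30.0 times as abundant as Apob in control mice, but 14.3 to 20.9 times in TAI mice and 18.9 to 23.0 times in TAI/IVIg mice. Apoa4 went from 0.0577–0.0854 of the Apoa1 level in control mice to 0.148–0.212 in TAI mice and 0.187–0.234 in TAI/IVIg mice. The ratio of Apoc3 to Apob was 0.335 to 0.545 in control and 0.457 to 0.584 in TAI mice, and 0.830 to 1.27 in TAI/IVIg mice, where it exceeded every other mouse. Taken within a library, these ratios do not depend on a factor applied to the whole library. Quantile normalization does change them, with log2 fold changes after TAI of 1.37 for Apoa1 and 2.57 for Apob.

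Levels were also set against 8 epithelial genes (Epcam, Cdh1, Cdh17, Krt8, Krt18, Krt19, Vil1 and Cldn7) of the same library. Their mean log2(FPKM + 1) was 9.13 ± 0.111 (SD, n = 3) in control, 8.90 ± 0.228 in TAI mice and 8.68 ± 0.0648 in TAI/IVIg mice, with Krt19 and Krt8 lower and Cldn7 higher after TAI. Krt18 fell by 1.82 on the log2 scale in TAI/IVIg against control (adjusted p = 0.00455, limma) and had a difference of -1.16 between TAI/IVIg and TAI (adjusted p = 0.353). Krt19 fell further, by 2.80 against control (adjusted p = 0.00245, limma), with a difference of -0.89 against TAI (adjusted p = 0.443). Relative to the mean of the reference, Apoa4 was 3.15 higher on the log2 scale in TAI than in control mice, Apoc3 2.94, Apob 2.64, Apoa1 1.85 and Dgat2 0.99, and Plin2 was -0.78. The lower reference in TAI mice adds to these rises and takes from the fall of Plin2. Without it the log2 fold changes were 2.91 for Apoa4 and -1.01 for Plin2. The same 6 genes separated all TAI from all control mice, each at an exact two-sided permutation p of 0.1, the smallest that 3 against 3 mice allow (0.167 adjusted over the 10 genes). Between TAI/IVIg and TAI, Apoc3 (1.10) and Apoa4 (0.72) separated all mice at the same p of 0.1 (0.4 adjusted, exact permutation). Without the reference these differences were 0.88 and 0.50, and the lower reference in TAI/IVIg mice adds to them. That count of 2 became 10 without TAI mouse 3 and 4 without TAI/IVIg mouse 1. The reference was 9.00 and 9.06 in TAI mice 1 and 2, 8.64 in TAI mouse 3 and 8.64 to 8.76 in TAI/IVIg mice. A lower reference raises every gene set against it. The share of all genes that separated on this scale was not computed, so these counts describe the members only. A permutation test with 3 against 3 mice cannot reach 0.05.

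Markers of intestinal region were read beside the comparisons with control. Fabp6, the ileal bile acid binding protein, was 7415, 8177 and 7326 FPKM in control mice, 1372, 1874 and 3529 in TAI and 1351, 208 and 229 in TAI/IVIg mice. Slc10a2, the ileal bile acid transporter, ran from 64.9 to 138 FPKM in control, from 48.1 to 75.5 in TAI and from 11 to 29.5 in TAI/IVIg mice. Both ileal genes fell in TAI/IVIg against control, and neither passed the threshold after TAI (Fabp6 adjusted p = 0.0549, Slc10a2 adjusted p = 0.158, limma). Lct, the lactase of proximal and middle small intestine, was 4.82 to 16.6 FPKM in control, 106 to 210 in TAI and 216 to 343 in TAI/IVIg mice. The control tissue labelled jejunal thus held much more of the ileal gene Fabp6 and less Lct than the irradiated tissue, whereas Gata4, a factor of the proximal intestine, was 16.9 to 22.6 FPKM in control, 11.1 to 16.7 in TAI and 16.8 to 22.2 in TAI/IVIg mice. Of 8 enterocyte markers, 5 rose after TAI (Alpi, Lct, Treh, Mep1a and Fabp2, named after their values were seen) and none fell, beside 8.81% of all genes higher and 26.1% lower, and Sis, sucrase-isomaltase, ran from 257 to 510 FPKM in control and from 129 to 196 in TAI mice without a call. Segment and treatment cannot be told apart between control and irradiated mice. Within the irradiated mice, TAI mice had Fabp6 of 1372 to 3529 FPKM with Apoa4 of 2055 to 2404 and Apob of 679 to 777, and TAI/IVIg mice had Fabp6 of 208 to 1351 with Apoa4 of 3014 to 3662 and Apob of 683 to 808. Between these groups Apoa4 and Fabp6 did not overlap, whereas Apob did. At near-equal Fabp6, TAI mouse 1 (1372) and TAI/IVIg mouse 1 (1351) had Apoa4 of 2370 and 3031. Of the TAI mice, mouse 3 had both the highest Fabp6 (3529) and the highest Apoa4 (2404). The part of segment in these levels was not tested.

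**Figure D3:**
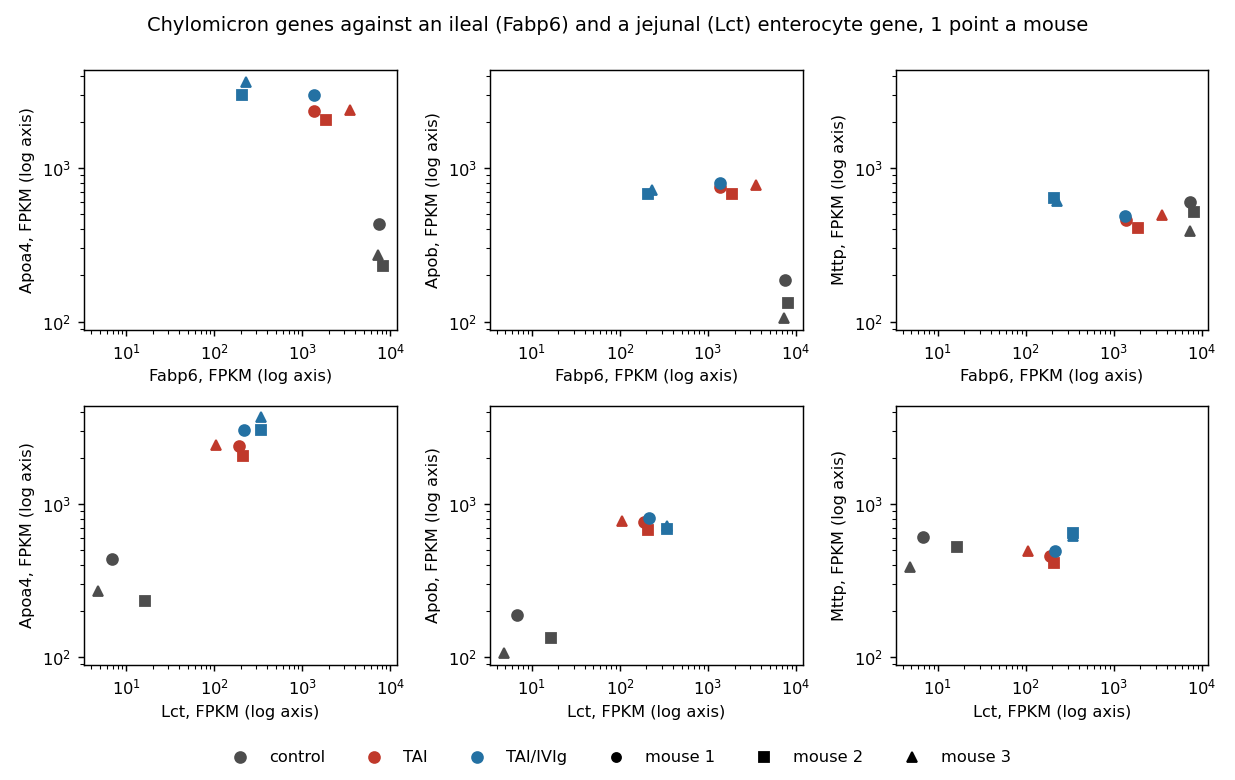
Apoa4, Apob and Mttp (y axes) against the ileal gene Fabp6 and the jejunal gene Lct (x axes), all in FPKM on log axes, with a point for each mouse. Control mice, with Fabp6 of at least 7326 FPKM, hold the lowest Apoa4 and Apob, and TAI/IVIg mice, with Fabp6 of 208 to 1351 FPKM, hold higher Apoa4 than TAI mice, with 1372 to 3529, while Apob of the 2 groups overlaps.

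Other tissues were checked for their markers. Of 8 hepatocyte markers, 4 (Ahsg, Serpina1a, Fgb and Fga) were under 1 FPKM in every mouse and Alb was 5.92 to 9.30 FPKM, with no separation of the groups. The summed hepatocyte list was 18.0–25.3 FPKM in control, 34.2–146 in TAI mice and 11.7–28.4 in TAI/IVIg mice, and the 2 genes that carried its peak in TAI mouse 3 were Cyp2e1 and Hp. The 5 pancreatic acinar markers measured were under 1 FPKM in every mouse. Proliferation markers, 6 genes, summed to 25.1–67.4 FPKM in control, 3.98–6.32 in TAI mice and 1.16–4.83 in TAI/IVIg mice, and all 6 fell after TAI, where 26.1% of all genes fell. Smooth muscle markers were lowest in TAI/IVIg mouse 3 (87.8 FPKM summed, against 224 to 589 in the other mice). Between TAI and TAI/IVIg mice the summed Paneth markers (645–1704 against 60.5–490 FPKM), goblet markers (792–1256 against 328–736) and endothelial markers (19.0–26.9 against 8.63–16.4) did not overlap. Agr2 of the goblet list (-1.74), Chga (-1.65) and Cck (-1.28) of the enteroendocrine list, Lyve1 of the endothelial list (-1.38) and Cd68 of the macrophage list (-0.95) fell after TAI on the log2 scale, while the goblet genes Muc2 (0.86) and Fcgbp (1.32) rose, and these were all the calls in those lists. The part of these cell types in the apolipoprotein values was not tested. Leaving out TAI mouse 3 and TAI/IVIg mouse 3 together left 4 members higher and 1 lower after TAI, with only the Dgat2 call lost. Of 12808 genes tested there, 913 rose and 2103 fell.

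The rest of the pathway was read from 7 lists, of which 57 genes were tested. Of these 8 rose and 8 fell after TAI, where 8.81% of all genes rose and 26.1% fell. In the 3 other scalings (library medians set equal, quantile normalization, median-ratio library sizes) 11 rose and 1 to 4 fell. Over all genes the split of 1150 higher and 3411 lower became 2159 and 1823, 1994 and 2284, and 1976 and 1913, and the median of all genes moved from -0.23 to 0.05, -0.02 and 0.00.

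Partners of apolipoprotein B editing and lipidation showed 1 of 6 higher and 2 lower, with a median log2 fold change of -0.19. Prap1, a secreted protein reported to bind triglyceride and aid microsomal transfer, rose from 224–349 FPKM in control to 693–777 in TAI mice and 810–1051 in TAI/IVIg mice (log2 fold change after TAI 1.33, SE 0.19). P4hb, the disulfide isomerase that is the other subunit of the transfer protein, fell by 0.74 on the log2 scale and Rbm47, a cofactor of apolipoprotein B mRNA editing, by 0.47. Neither fall was called when library medians were set equal or with median-ratio library sizes.

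Among 13 genes of pre-chylomicron export, 2 rose and 1 fell (median -0.13). Mia2, an endoplasmic reticulum exit site protein for bulky cargo, rose from 12.3–13.9 to 21–25.6 FPKM (log2 fold change 0.79), and Sec24d, a cargo adaptor of the COPII coat, from 24.0–35.5 to 39.7–43.6 (0.45, adjusted p = 0.0497, limma). Sec23b, of the inner coat, fell from 19.7–23.2 to 11–13.6 FPKM (-0.73), a call lost with library medians set equal. Sar1b, the small GTPase needed for chylomicron export, was named outside the rule, after its values were seen, and was not called (log2 fold change -0.36, adjusted p = 0.147, limma).

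Of 10 genes of acyl-CoA and glycerolipid synthesis, 1 rose and none fell (median -0.10). Lpin2, a phosphatidate phosphatase, was 7.27–14.1 FPKM in control and 16.5–38.3 in TAI mice (1.26, adjusted p = 0.0320, limma). The values for Acsl3 (0.33) and Agpat1 (-0.17) were not significant, and that of Agpat1 turned sign in the 3 other scalings, in which Acsl3 was called (0.62 to 0.69).

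Of 13 tested genes of lipid droplet coats and lipases, 3 rose and 1 fell (median 0.42). Lipe, the hormone-sensitive lipase, rose from 6.22–7.78 to 14.0–18.3 FPKM (1.08), and Cideb, a droplet protein that takes part in lipidation of apolipoprotein B particles, from 21.3–27.0 to 35.5–39.3 (0.58). Pnpla2, the principal triglyceride lipase of the droplet, rose by 0.63 (adjusted p = 0.0473, limma) and was added as the remaining called gene of the list. Hilpda, an inhibitor of that lipase, fell from 2.82–4.38 to 1.59–2.06 FPKM, a fall of 0.64 on the log2 scale that was not called in the other scalings.

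Of 7 transcription factors tested, 1 rose and 1 fell (median -0.17). Creb3l3, a liver and gut factor whose known targets include Apoa4 and Apoc2, rose from 68.2–108 FPKM in control to 260–277 in TAI mice and 271–364 in TAI/IVIg mice (log2 fold change after TAI 1.70, SE 0.19). Cdx2, an intestinal homeobox factor, fell by 0.66 on the log2 scale, a call lost in the other scalings. Gata4 had a log2 fold change of -0.48 and was not called (adjusted p = 0.0713, limma). Hnf4a, named outside the rule because its type of element was searched for, was not called either (0.13, adjusted p = 0.548). Its values were 171–218 FPKM in control, 199–235 in TAI mice and 177–227 in TAI/IVIg mice, with overlap in all comparisons.

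Of 3 tested genes of lipoprotein lipase and its partners, 2 inhibitors of the enzyme fell and none rose (median -1.26). Angptl8 went from 5.21–6.61 FPKM in control to 1.01–1.21 in TAI mice and 0.476–0.965 in TAI/IVIg mice, and Angptl4 from 19.4–23.4 to 5.57–13 and 3.30–9.52. Their log2 fold changes after TAI were -1.69 and -1.26, the latter not called with library medians set equal (adjusted p = 0.0564, limma). Lpl itself was 1.99–4.28 FPKM in control and 2.77–16.0 in TAI mice, the highest again in TAI mouse 3.

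Of the 9 other apolipoproteins, 4 (Apoa5, Apoc4, Apom and Apoh) were under 1 FPKM in every mouse. Of the 5 tested, 1 fell and none rose (median 0.26). Apod, of the lipocalin family and not a chylomicron protein, fell by 1.16 on the log2 scale, a call lost in the other scalings. Apoe ran from 66.1 to 139 FPKM in control and from 89.7 to 152 in TAI mice and was not called, nor was Apoc1 (0.53).

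**Figure D4:**
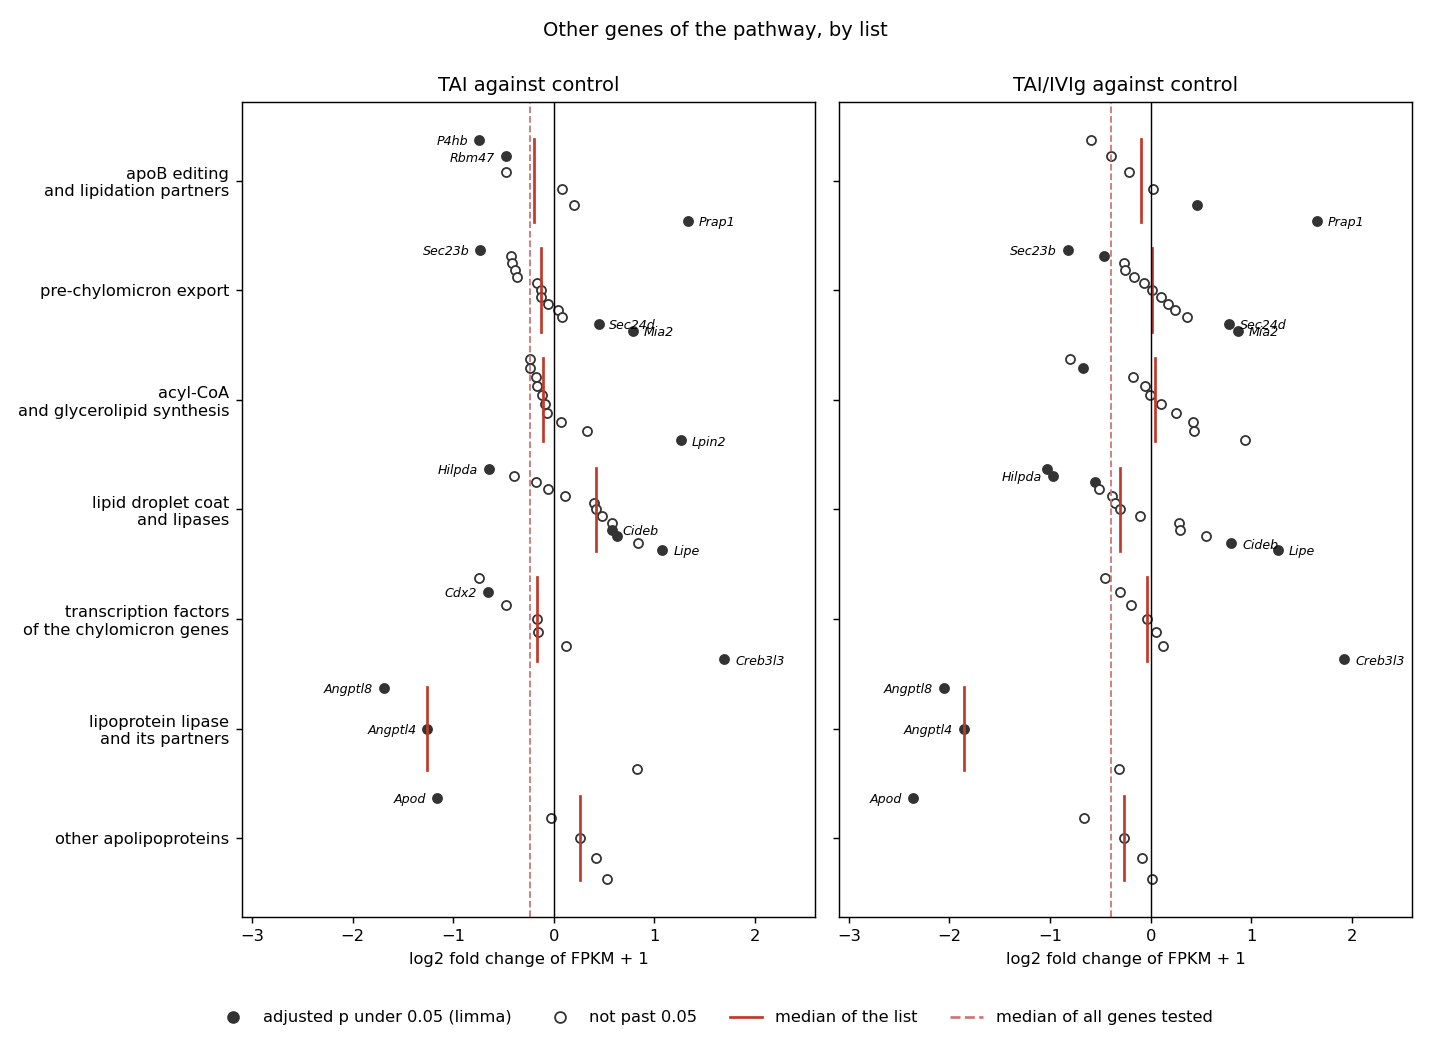
Log2 fold change of FPKM + 1 (x axis) of each tested gene of the 7 lists, for TAI and for TAI/IVIg against the same control mice, with filled points for adjusted p under 0.05, a bar at the median of each list and a dashed line at the median of all genes. Creb3l3 and Prap1 lie farthest to the right among called genes in both comparisons, and Apod, Angptl8 and Angptl4 farthest to the left.

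For TAI/IVIg against control the 7 lists held 7 higher and 9 lower genes of 57, where 9.06% of all genes rose and 37.4% fell, and between TAI/IVIg and TAI none was called. In the other scalings the former count was 15 to 20 higher and 3 to 4 lower. Over all 13056 genes the same scalings gave 2407 to 2880 higher and 1894 to 2379 lower.

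Genes whose course over the 9 mice most resembled each member were named by the smallest root mean square difference between log2 profiles centred on their own means. For Apoa1 they were Slc7a15 (0.127), the brush border phosphatase Alpi (0.140) and Sectm1b (0.146). For Apob they were Clec2e (0.158), Bst1 (0.170) and Erbb3 (0.217), and for Apoa4 Tmem37 (0.292), Cda (0.327) and Vwa1 (0.356). Apoc3 lay nearest to Cda (0.226), Slc46a1 (0.333) and Gm11775 (0.360). Cytidine deaminase, Cda, was thus among the nearest to both apolipoprotein genes with 3 separate groups. Mttp was closest to Cndp2 (0.0974), Nat8f5 (0.102) and Slc22a4 (0.104), and Mogat2 to Tmem165 (0.0709), Gucd1 (0.0791) and the acyl-CoA synthetase Acsl5 (0.0826). Near to Dgat1 were Sap30l (0.0612) and Tmem41a (0.0853), and to Dgat2 F2rl1 (0.111), Espn (0.112) and Dpp4 (0.115). Plin2 was nearest to Nr2c2ap (0.128), Ndufb1-ps (0.139) and Mmadhc (0.140), and Apoc2, with few reads, to Gm42570 (0.222). Among the members themselves the closest pair was Mttp and Mogat2 (0.145).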

How the data were processed

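RNA of whole jejunal tissue from 9 mice was sequenced. The authors deposited 1 table of FPKM values per gene and mouse. Their processing notes name FastQC, Trimmomatic, STAR, featureCounts, DESeq2 and the build mm10 (GRCm38), and the annotation release and the strand setting are not given in the sources used here. At GENCODE M21 exon lengths the values of 96.7% of the 31685 genes were whole reads within 0.02 reads, and libraries held 16284412 to 18244606 reads. Genes at 1 FPKM or more in at least 3 mice (13056) were tested with limma 3.58.1 (R 4.3.3, trended variance) on log2(FPKM + 1), with group as the only term, and called at a Benjamini-Hochberg adjusted p under 0.05. A pseudocount understates changes of low genes. The script was tested on simulated data. The labels give separate mice.

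Same-numbered control and TAI mice had correlated deviations from their group means (0.241 to 0.308). TAI/IVIg mouse 2 and control mouse 3, of different number, reached 0.408. The labels give no pairing, so the main fit held none, and a replicate block was run only as an alternative. Named genes are all 10 members, the 3 smallest unadjusted p after TAI in each pathway list, and the 3 genes most alike to each member, not all of which are reported here. Members and lists were chosen with earlier results of these data known. Alternatives were another pseudocount, filters, scalings, voom on recovered reads, a replicate block, the 6 mice compared, and leaving out each mouse.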

Additional observations from a re-analysis of the deposited data

How the results depend on the processing

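Each log2 fold change was recomputed in 17 alternatives (16 for Apoc2, which did not reach a mean of 5 FPKM). Apoa4, Apob and Apoc3 were called against control in all of them, in both comparisons, and Plin2 after TAI. Without a filter 3 members rose after TAI, where 1075 of 31685 genes rose and 2762 fell. Between TAI/IVIg and control 0 members fell with library medians set equal and 0 with median-ratio library sizes. Of all 13056 genes, 1894 and 2379 fell in these settings. Leaving out 1 mouse gave 4 to 5 members higher and 1 lower after TAI. In these fits 698 to 1005 of 12609 to 12936 genes rose and 1645 to 3453 fell. For TAI/IVIg against control it gave 4 to 6 members higher and 1 lower. There 918 to 1146 of 12609 to 12998 genes rose and 3350 to 4994 fell. Between TAI/IVIg and TAI it left 0 called. Relative to the epithelial genes, 6 to 7 members separated TAI from control mice and 2 to 10 separated TAI/IVIg from TAI mice, with 10 without TAI mouse 3 and 4 without TAI/IVIg mouse 1. The cause of these shifts was not tested. The share of all genes that separated on the scale relative to the epithelial genes was not computed, so those counts describe the members only.

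Signs that turned belonged to uncalled values, all on the log2 scale. With library medians set equal and with median-ratio library sizes, Mttp became 0.16 and 0.16 after TAI, Mogat2 0.38 and 0.37 for TAI/IVIg against control, and, between TAI/IVIg and TAI, Apob 0.20 and 0.18 and Dgat2 0.18 and 0.16. Leaving out single mice gave, after TAI, -0.49 to 0.33 for Apoc2, -0.31 to 0.013 for Mttp and -0.084 to 0.18 for Dgat1. For TAI/IVIg against control it gave -0.22 to 0.60 for Apoc2 and -0.22 to 0.0076 for Mogat2. Between TAI/IVIg and TAI it gave -0.072 to 0.049 for Apob, -0.14 to 0.078 for Dgat2 and -0.050 to 0.22 for Plin2. Leaving out TAI mouse 3 and TAI/IVIg mouse 3 together was chosen after seeing the data. It gave -0.26 for Apoc2 and -0.084 for Dgat1 after TAI, and 0.049 for Apob and 0.065 for Dgat2 between TAI/IVIg and TAI.

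With the replicate block 5 members rose and 1 fell after TAI, as without it, and no member call changed. Of all 13056 genes, 1191 rose and 3672 fell with the block. Same-numbered TAI/IVIg and control mice had correlations from -0.296 to 0.185. For TAI/IVIg the block left 5 members higher and 1 lower against control, with Dgat1 not called, and 0 called against TAI. Against control the block called 1193 of all 13056 genes higher and 4984 lower. Without it, TAI/IVIg against control gave 1183 higher and 4880 lower over all genes. These counts became 2880 and 1894 with medians set equal, 2407 and 2253 with quantile normalization and 2419 and 2379 with median-ratio library sizes. Apoc2 rested on only 6 to 51 reads, for a reason that was not tested, and 3 mice a group limit every comparison.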
